A study of Mus musculus with 3 samples.

Results

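The genes of the mouse proteasome are described here, chosen as those with a name of Psm, a letter from a to g and a digit. Of 11419 genes in the deposited tables, 48 had such a name, and 47 of them encode proteasome subunits, activators, an inhibitor or assembly chaperones. The remaining gene, Psmc3ip, encodes a meiotic recombination protein and was left out of all classes. It had 7.18, 6.87 and 5.69 CPM (counts per 1000000 reads assigned to listed genes) in replicates 1, 2 and 3. Psma8, the alpha subunit of germ cells, and Psmb11, the subunit of thymic epithelium, were not listed in the tables, so their levels were not analysed here.

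The proteasome is the protease complex that degrades most ubiquitin-tagged proteins of the cytosol and nucleus. Its barrel, the 20S core, stacks rings of alpha subunits, which gate the entrance, around rings of beta subunits, some of which carry the cutting sites. A cap, the 19S regulatory particle, holds the ATPases that unfold substrates and the non-ATPase subunits that bind and strip ubiquitin. In cells of the immune system and after interferon-gamma, the immunoproteasome subunits Psmb8, Psmb9 and Psmb10 replace the catalytic subunits Psmb5, Psmb6 and Psmb7 in newly built cores, which is known for its part in making peptides for MHC class I molecules.

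The tables came from RNA of 1 sorted population of bone marrow cells of C57BL/6 mice, gated as Cd11b+, F4/80+, CD169+ and negative for CX3CR1, in 3 libraries. The labels gave no genotype, treatment or age, and there was no control population. The labels called the cells macrophages, but neutrophil transcripts were abundant. All 12 of 12 neutrophil granulocyte markers lay above 10 CPM, and together they took 22.6%, 22.6% and 18.9% of the reads of replicates 1, 2 and 3. The 12 macrophage markers summed to 259, 241 and 264 CPM, with 5 above 10 CPM, 5 below and 2 not called. Siglec1, which encodes CD169, had 0.388, 3.66 and 4.57 CPM. Because the RNA was bulk, the cells that carried the proteasome transcripts cannot be told apart, nor can fewer cells of a type and less RNA per cell. The libraries held 5150020, 40149274 and 37604930 assigned reads, so a gene at 10 CPM had 51.5 reads in replicate 1, against 401 and 376 in replicates 2 and 3. Marker sums also differed between libraries: basophil markers summed to 919, 124 and 134 CPM, and eosinophil markers to 482, 770 and 1167 CPM. Erythroid markers summed to 935, 519 and 480 CPM and monocyte markers to 1159, 1032 and 942 CPM, both highest in replicate 1 and lowest in replicate 3. Their part in the values below was not tested.

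Proteasome genes were broadly and moderately expressed. The 47 genes summed to 3356, 3055 and 2905 CPM, or 3106 ± 230 CPM (SD, n = 3), and their median level was 59.4 CPM, against 20.9 CPM over all 11123 genes tested. Since there was no second group to set them against, levels were tested against 10 CPM by limma (two-sided, Benjamini-Hochberg adjusted p under 0.05 over all 11123 genes). Of the 47 genes, 42 lay above that level, while 58.8% of all genes tested did. Another 3 lay below it (Psme2b, Psmg2 and Psmg4), while 28.3% of all genes did, and 2 were not called (Psmg1 and Psmg3). All genes of the 20S core, the immunoproteasome and the 19S particle that were listed were among the 42. The level of 10 CPM is an arbitrary line, so the call places a gene on a scale of abundance and says nothing of a response.

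**Figure D1:**
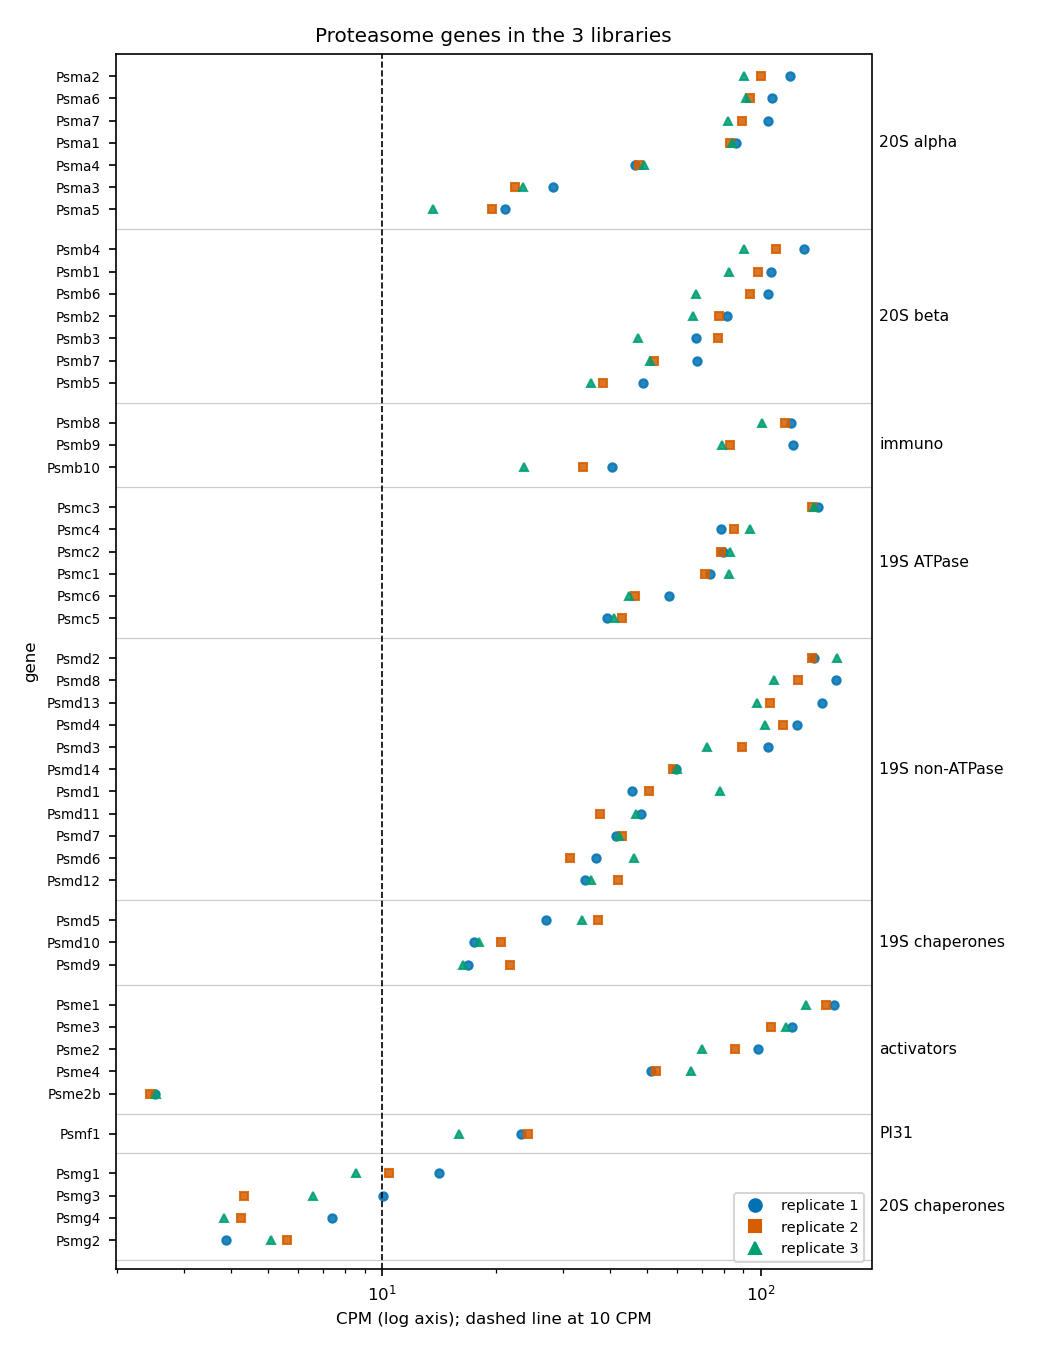
CPM of each of the 47 proteasome genes in the 3 libraries, on a log axis and grouped by class, with 1 point per library and a line at 10 CPM. The core, immunoproteasome and 19S genes sit above the line in all 3 libraries, and the 20S assembly chaperones and Psme2b lie around or below it.

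All 3 immunoproteasome genes were expressed above 10 CPM in every library. Psmb8, the inducible chymotrypsin-like subunit (chr17:34197721-34201454, plus strand, GRCm38), had 120.0, 116 and 100.5 CPM. Psmb9, which takes the place of Psmb6 (chr17:34181987-34187764, minus strand), had 121, 83.1 and 78.8 CPM. Psmb10, which takes the place of Psmb7, had 40.4, 33.9 and 23.7 CPM. Each of the 3 genes was highest in replicate 1 and lowest in replicate 3. Their means were 112 ± 10.3, 94.4 ± 23.4 and 32.7 ± 8.39 CPM in that order (SD, n = 3), and limma placed them 3.36 (SE 0.12, adjusted p = 3.07e-17), 3.09 (SE 0.14, adjusted p = 1.36e-15) and 1.58 (SE 0.17, adjusted p = 1.4e-08) above 10 CPM on the log2(CPM + 1) scale.

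The constitutive partners also differed in level. Psmb5, the constitutive chymotrypsin-like subunit, had 48.9, 38.4 and 35.6 CPM. Psmb6, the caspase-like subunit, had 105, 93.8 and 67.4 CPM. Psmb7, the trypsin-like subunit, had 67.8, 52.3 and 51.1 CPM. Like the inducible subunits, each was highest in replicate 1 and lowest in replicate 3. In CPM with no length scaling, Psmb8 thus lay above Psmb5 and Psmb10 below Psmb7 in all 3 libraries, while Psmb9 lay above Psmb6 in replicates 1 and 3 and below it in replicate 2.

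Reads scale with transcript length, so each subunit was compared with its partner within a library as the log2 ratio of (CPM + 1) per kb. With length as the union of annotated exons, Psmb8 over Psmb5 was -0.63, -0.34 and -0.44 (mean -0.47 ± 0.15, SD, n = 3; limma adjusted p = 0.0208). Psmb9 over Psmb6 was -0.76, -1.14 and -0.74 (mean -0.88 ± 0.23; adjusted p = 0.00129). Psmb10 over Psmb7 was 0.27, 0.39 and -0.07 (mean 0.20 ± 0.24; adjusted p = 0.362). By that length Psmb8 and Psmb9 lay below their partners in 3 of 3 libraries, and Psmb10 was not called different from Psmb7. In these fits over all genes, 89.5% of genes lay below Psmb5, 88.7% below Psmb6 and 73% below Psmb7, so a call of lower is common there. Per kb of principal transcript 93% of genes lay below Psmb6 and 85.2% below Psmb7, and per kb of coding sequence 76.7% lay below Psmb7, while 9.3% and 18% lay above Psmb5 by these lengths. The exact sign-flip permutation test over the 3 libraries gave p = 0.25, 0.25 and 0.5, and 0.25 is the smallest p it can give with n = 3 (0.375, 0.375 and 0.5 after adjustment over the 3 pairs).

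The direction turned with the length used. The exon union of Psmb8 is 3.381 kb, its principal transcript 1.628 kb and its coding sequence 0.828 kb, while Psmb5 measures 0.899, 0.899 and 0.792 kb. Per kb of principal transcript, Psmb8 lay above Psmb5 by 0.58 (adjusted p = 0.00258), and per kb of coding sequence by 1.38 (adjusted p = 2.09e-12). Psmb10 over Psmb7 was -0.98 per kb of principal transcript (adjusted p = 4.16e-06) and -0.79 per kb of coding sequence (adjusted p = 0.000446). Psmb9 over Psmb6 was -0.67 per kb of principal transcript (adjusted p = 0.00731), but 0.21 per kb of coding sequence (adjusted p = 0.423). Which transcripts of these genes the cells made is not given by counts per gene, so the order of each inducible subunit and its partner was not settled by these data. Leaving out replicate 2 also ended the call of Psmb8 and of Psmb9 with the exon union (adjusted p = 0.18 and 0.184), and leaving out replicate 3 that of Psmb8 (adjusted p = 0.0582).

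**Figure D2:**
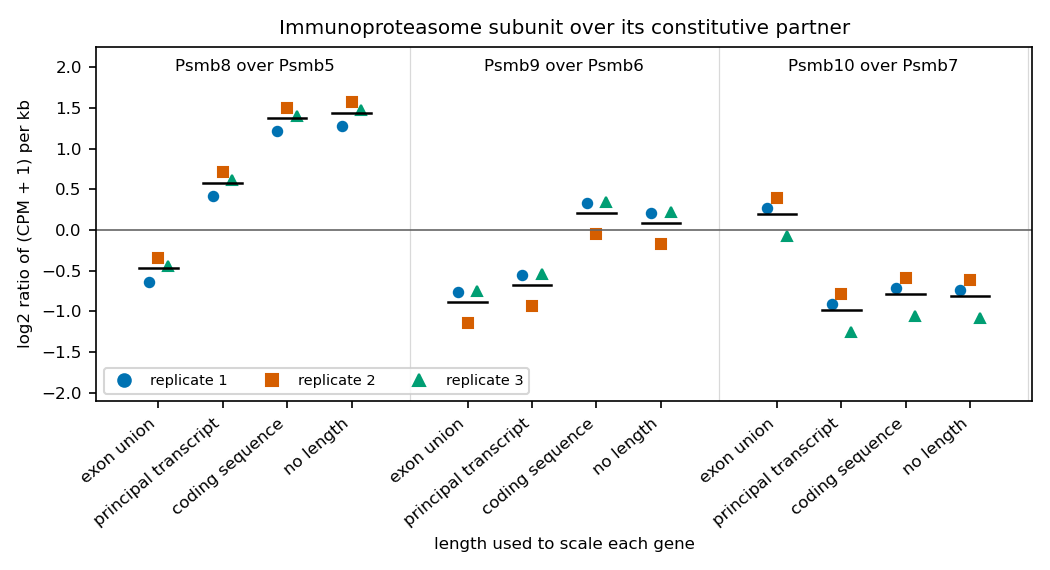
Log2 ratio of each immunoproteasome gene to its constitutive partner in the 3 libraries, with (CPM + 1) taken per kb of exon union, principal transcript or coding sequence, or with no length. Psmb8 over Psmb5 lies below 0 with the exon union and above 0 otherwise, and Psmb10 over Psmb7 averages 0.20 with the exon union and lies below 0 otherwise.

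Psmb8 and Psmb9 stand in the MHC region on chromosome 17 beside the genes of the peptide transporter. Psmb9 runs on the minus strand and, by the GENCODE bounds, overlaps the first 212 bases of Tap1, on the plus strand (34187553 to 34197225). Psmb8 starts 495 bases after Tap1 ends, and Tap2 starts 2072 bases after Psmb8 ends. Tap1, a chain of the transporter that carries peptides into the endoplasmic reticulum, had 114, 87.8 and 125 CPM, lowest in replicate 2, and Tap2, the other chain, had 170, 144 and 158 CPM. The neighbours' order over libraries was thus not that of Psmb8 and Psmb9, which were lowest in replicate 3. Whether the authors' counting used strand was not given in the sources used here, so reads from the shared bases of Psmb9 and Tap1, of Psmb8 and the antisense gene Gm20496 (498 shared bases) and of Psmb7 and Nek6 (405 shared bases) cannot be told apart.

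The promoters of the members were searched for matches to short motifs. The sequences below, from RefSeq on GRCm38.p6, run from 250 bases before to 50 bases after the start annotated by RefSeq, and they are shown for the 2 inducible subunits of the MHC region, for the constitutive partners that matched the table, and for the interferon-inducible activator Psme1. Capitals mark matches, on either strand, to the gamma-activated site TTCNNNGAA, to the interferon-stimulated response element (GAAA, a gap of 2 bases, GAAA), to the antioxidant response element core TGACNNNGC, and to the CCAAT box. None of the matches printed here overlap each other. The gene bounds given above are those of GENCODE. The RefSeq start lies inside the GENCODE bounds for Psmb8, Psmb9, Psme1 and Psmb5. The windows of Psmb8, Psmb9 and Psme1 lie wholly within the GENCODE genes, while that of Psmb5 reaches past the bound of its gene. By the RefSeq start Psmb9 would not reach Tap1.

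Psmb8, chr17:34197945-34198244, plus strand: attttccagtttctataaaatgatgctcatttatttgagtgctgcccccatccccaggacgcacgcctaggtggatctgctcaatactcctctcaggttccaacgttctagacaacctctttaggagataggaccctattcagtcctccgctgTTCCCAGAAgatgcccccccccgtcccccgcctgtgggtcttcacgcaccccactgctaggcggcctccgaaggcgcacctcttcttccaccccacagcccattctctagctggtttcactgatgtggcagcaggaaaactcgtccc

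Psmb9, chr17:34187281-34187580, minus strand: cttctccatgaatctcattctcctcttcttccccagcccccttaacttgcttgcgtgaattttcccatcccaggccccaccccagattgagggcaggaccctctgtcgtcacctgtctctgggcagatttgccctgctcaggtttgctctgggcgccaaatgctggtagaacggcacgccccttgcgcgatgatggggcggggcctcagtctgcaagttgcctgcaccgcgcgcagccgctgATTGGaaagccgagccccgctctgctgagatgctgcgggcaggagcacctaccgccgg

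Psmb5, chr14:54617946-54618245, minus strand: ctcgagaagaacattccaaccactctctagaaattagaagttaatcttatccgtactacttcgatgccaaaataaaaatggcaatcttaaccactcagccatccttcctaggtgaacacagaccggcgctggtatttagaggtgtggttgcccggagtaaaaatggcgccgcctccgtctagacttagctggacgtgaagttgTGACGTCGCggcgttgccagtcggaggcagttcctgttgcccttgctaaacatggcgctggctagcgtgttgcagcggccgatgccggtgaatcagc

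Psmb6, chr11:70525107-70525406, plus strand: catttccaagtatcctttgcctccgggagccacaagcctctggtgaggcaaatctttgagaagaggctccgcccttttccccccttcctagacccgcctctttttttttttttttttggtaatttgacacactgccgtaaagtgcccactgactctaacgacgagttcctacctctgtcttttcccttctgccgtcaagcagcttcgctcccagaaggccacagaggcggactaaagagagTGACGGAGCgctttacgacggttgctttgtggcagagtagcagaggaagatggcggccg

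Psme1, chr14:55578244-55578543, plus strand: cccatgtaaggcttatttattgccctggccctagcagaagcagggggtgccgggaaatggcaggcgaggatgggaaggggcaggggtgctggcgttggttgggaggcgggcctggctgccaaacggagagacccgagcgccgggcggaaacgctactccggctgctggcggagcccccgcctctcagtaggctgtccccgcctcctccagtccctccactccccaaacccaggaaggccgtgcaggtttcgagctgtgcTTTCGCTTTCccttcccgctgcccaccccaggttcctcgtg

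Psmb8 holds TTCCCAGAA at bases -97 to -89 from the start, and Psmb9 holds ATTGG, the reverse complement of the CCAAT box, at -8 to -4, in a window that reaches into the start of Tap1. Psmb5 holds TGACGTCGC at -47 to -39, Psmb6 holds TGACGGAGC at -9 to -1, and Psme1 holds TTTCGCTTTC on the minus strand at 9 to 18. Psmb10 held none of the 4 motifs in its window. Of the 48 names, 41 matched a promoter, and the first start listed for each gene was used. The antioxidant response element core was present in 6 of 41 (14.6%), against 12.5% of 27025 promoters in all, the CCAAT box in 14 (34.1%), against 37.9%, and the gamma-activated site in 3 (7.32%), against 8.47%. The interferon-stimulated response element was present in 5 of 41 (12.2%), against 3.49%, and those 5 were Psmb3, Psmd4, Psmd9, Psme1 and Psmg4. Among the 8870 promoters matched to genes with CPM values here, the shares of these motifs were 15.2%, 39.3%, 6.9% and 3.36%, in the order given. A match describes the letters only.

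The other constitutive 20S genes were all above 10 CPM, with a wide range inside each ring. Among the 7 alpha genes listed, Psma2 had the highest mean CPM, with 119, 100.002 and 90.3 CPM (Psma6 was above it in replicate 3), and Psma5 was lowest at 21.2, 19.5 and 13.7 CPM (0.77 above the level on the log2 scale, SE 0.19, limma adjusted p = 0.000752). Among the 7 beta genes, Psmb4, a structural subunit, was highest at 130, 109 and 90.5 CPM, and Psmb5 was lowest. The values of Psma2 and Psma5 did not overlap. The mean levels of Psma1, Psma6 and Psma7 lay between 84.2 and 97.3 CPM, those of Psma3 and Psma4 were 24.8 ± 3.12 and 47.9 ± 1.34 CPM, and those of Psmb1, Psmb2 and Psmb3 were 95.6, 75.1 and 64.0 CPM (n = 3).

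Although the subunits of a ring are built in at equal number, the alpha genes differed 5.87-fold per kb of coding sequence and 11.6-fold per kb of principal transcript between the highest and the lowest. In mean level per kb of principal transcript Psma7 led at 100.7 CPM per kb, and Psma5 and Psma3 were lowest at 14.6 and 8.72. Psma3 and Psma5 were also the lowest alpha genes by the other 2 lengths. The beta genes differed by 2.68-fold per kb of coding sequence and 2.44-fold per kb of principal transcript. There Psmb6 had the highest mean at 111 CPM per kb, and Psmb5 and Psmb7 were lowest at 45.6 and 49.2.

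Several of the low constitutive 20S genes have sequence that occurs in other genes. For each gene, the share of 50-base words of the principal transcript that also occur in another annotated gene was computed, a count that takes in processed pseudogenes and overlapping genes. A split at 20%, chosen after the values were seen, gave 6 constitutive 20S genes above it (Psma3, Psma4, Psma5, Psmb3, Psmb5 and Psmb7), with 22.02% to 57.1% of words shared, and 8 below it, with 0% to 3.53%. The mean levels of the 6 genes were 25.0 to 104 CPM per kb of coding sequence, and those of the 8 genes 107 to 147. The sets overlapped within libraries, since Psmb3 had 109.9 and 125 CPM per kb in replicates 1 and 2, where Psma1 had 109 and 105. Per kb of principal transcript the means overlapped too, at 8.72 to 83.6 and 35.5 to 111 CPM per kb. Psmb5 shared 57.1% of its words, among others with its pseudogene Psmb5-ps, Psma5 shared 55.4% and Psmb3 55.8%, and all 28.1% of Psmb7 were shared with Nek6. Psmb10 was low at 39.9 CPM per kb of coding sequence with 0% shared. Outside the 20S core, sharing and level did not go together in every gene. Psme2 shared 59.3% at 118 CPM per kb of coding sequence. Psmd2, with 26.4%, had the highest mean CPM of the 19S genes. Per kb of coding sequence, however, Psmd2 had 53.1 CPM, against a 19S median of 56.0 (mean over libraries). Psmc5, Psmd12 and Psmd6, with 0%, had 33.8, 27.2 and 32.6 CPM per kb. Psme2b, with 69.3%, was low at 3.48, and Psmc3, with 0%, had 102. How the authors' counting treated reads that match several places was not given in the sources used here, and the part of shared sequence in these levels was not tested. It bears on the pairs above, since Psmb5 and Psmb7 served there as the partners.

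**Figure D3:**
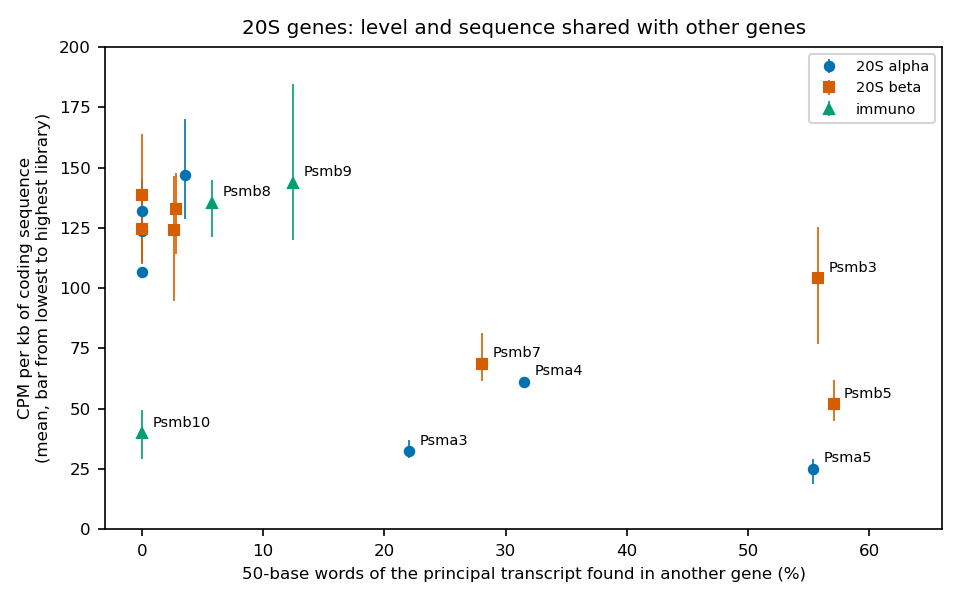
Mean CPM per kb of coding sequence of each 20S gene, with a bar from the lowest to the highest of the 3 libraries, against the percentage of 50-base words of its principal transcript found in another gene. Constitutive genes with under 4% of words shared have means of 107 or more and those with 22.02% or more have means of 104 or less, but the bar of Psmb3 overlaps those of genes with little sharing, and Psmb10 is low with 0% shared.

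All 6 ATPase genes and all 11 non-ATPase genes of the 19S particle lay above 10 CPM, as did 58.8% of all genes tested. Among the ATPases, which form the unfolding ring, Psmc3 was highest at 141, 136 and 138 CPM, and Psmc5 was lowest at 39.2, 43.1 and 41.0 CPM. Psmc1, Psmc2, Psmc4 and Psmc6 lay between. The values of Psmc3 and Psmc5 did not overlap, and both varied little between libraries, with SDs of 2.49 and 1.93 CPM around means of 139 and 41.1 CPM.

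Among the non-ATPase genes, Psmd2, a scaffold of the base, had the highest mean CPM, with 138, 137 and 159 CPM, and Psmd12, a lid subunit, the lowest, with 34.4, 41.9 and 35.5 CPM. Psmd8 was above Psmd2 in replicate 1, and Psmd6 and Psmd11 were below Psmd12 in replicate 2. Psmd14, the deubiquitinase that removes ubiquitin chains before degradation, was the steadiest of the 47 genes, at 59.6, 58.6 and 60.1 CPM (coefficient of variation 1.24%). Psmd4, a ubiquitin receptor, had 124, 114 and 102 CPM, and Psmd8, a lid subunit, had 158, 125 and 109 CPM. Psmd1, the other large scaffold of the base, differed most in the opposite direction, with 45.8 and 50.8 CPM in replicates 1 and 2 and 78.2 CPM in replicate 3. The exons of Psmd1 overlap those of Gm21972 on the same strand by 301 bases, and those of Psmd13 overlap Sirt3 by 342 bases, so their values are uncertain to that extent.

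Set per length, the 19S genes lay below the constitutive core. The median of the 17 genes over that of the 14 core genes, as log2 of CPM per kb of exon union, was -0.55, -0.46 and -0.27 (mean -0.43 ± 0.14, SD, n = 3). It was -0.54 ± 0.06 per kb of principal transcript and -1.04 ± 0.22 per kb of coding sequence, and it was negative in 3 of 3 libraries by each of the 3 lengths. With no length the difference was -0.18, -0.17 and 0.22 (mean -0.04 ± 0.23), so its sign differed between libraries. The median coding length was 1.254 kb for 19S genes and 0.741 kb for core genes. The median of the 3 immunoproteasome genes over that of the core was 0.10, -0.33 and -0.25 per kb of exon union, 0.08 per kb of principal transcript and 0.18 per kb of coding sequence on average, with signs that differed between libraries or lengths. These are descriptions of medians and were not tested.

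The activators split by gene. Psme1, which encodes PA28 alpha, had the highest mean CPM of the 47 genes, just above Psmd2, with 156, 149 and 132 CPM (mean 146 ± 12.4, SD, n = 3; 3.73 above the level on the log2 scale, SE 0.12, limma adjusted p = 2.06e-18). Psme2, which encodes PA28 beta, its partner in the same ring, had 98.4, 85.7 and 70.0 CPM. Both were highest in replicate 1 and lowest in replicate 3, and they stand 5911 bases apart on chromosome 14. Per kb of principal transcript Psme1 averaged 131 and Psme2 88.1 CPM per kb, the log2 ratio with no length being 0.78 ± 0.12.

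Psme2b, a near-identical copy of Psme2 on chromosome 11, had 2.52, 2.44 and 2.53 CPM (1.65 below the level on the log2 scale in the fit, SE 0.29, limma adjusted p = 1.65e-05). It shared 69.3% of its words, and Psme2 59.3%, with the other copy or the pseudogene Gm7928, so the split of reads between both is uncertain. Psme3, which encodes the nuclear activator PA28 gamma, had 121, 107 and 116 CPM. Psme4, which encodes PA200, had 51.5, 52.8 and 65.4 CPM and was highest in replicate 3. Psmf1, which encodes the inhibitor PI31, had 23.3, 24.3 and 16.0 CPM (0.99 above the level, SE 0.18, adjusted p = 3.57e-05).

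The dedicated 20S assembly chaperones had the lowest median CPM of the classes, 6.08 CPM, though not per kb of exon union, where they had 5.71 CPM per kb and the chaperones of the 19S base 4.52. The 20S chaperones Psmg1 and Psmg2 pair to build the alpha ring, and Psmg3 and Psmg4 form another pair that acts on the same ring. Psmg1 had 14.2, 10.4 and 8.56 CPM and did not differ from 10 CPM by the test (adjusted p = 0.65). Psmg2 had 3.88, 5.63 and 5.11 CPM, of which the value of replicate 1 rests on 20 reads (-0.92 on the log2 scale, SE 0.26, adjusted p = 0.00232). The values of Psmg2 lay below 10 CPM in every library, and those of Psmg1 lay on both sides of it. Psmg3 had 10.1, 4.33 and 6.59 CPM and was not called (-0.52, adjusted p = 0.06). Psmg4 had 7.38, 4.26 and 3.83 CPM (-0.88, SE 0.26, adjusted p = 0.00383), and the call was lost without replicate 2 (adjusted p = 0.102). In replicate 1 the exact 95% intervals of counting error ran from 7.54 to 13.2 CPM for Psmg3 and from 5.22 to 10.1 CPM for Psmg4, so neither was apart from 10 CPM in that library.

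The chaperones of the 19S base, Psmd5, Psmd9 and Psmd10, lay above 10 CPM, with a median of 18.7 CPM. Psmd5 was highest at 27.2, 37.1 and 33.8 CPM, and Psmd9 had the lowest mean, with 16.9, 21.7 and 16.4 CPM, though Psmd10 was lower in replicate 2. The call of Psmd9 was lost without replicate 2 (adjusted p = 0.0626), as was that of Psma5 (adjusted p = 0.0782), and 1849 bases of Psmd9 exons overlap the lincRNA Gm26745 on the other strand. Per kb of exon union, with the median listed gene as the level, the order of chaperones changed. Psmg4, whose transcript is short, then lay above that level by 0.89 (limma adjusted p = 0.00116), as did Psmg1 by 0.76 (adjusted p = 0.0014). Psmd9 lay below it at -0.61 (adjusted p = 0.00489), as did Psmg3 at -0.69 (adjusted p = 0.00721). Psmd5 was not called at 0.03 (adjusted p = 0.845), nor was Psmf1 at -0.34 (adjusted p = 0.0817).

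The median spread of proteasome genes between libraries was below that of all genes. The median SD of log2(CPM + 1) was 0.19 over the 47 genes, against 0.27 over all genes tested, and the median coefficient of variation was 13.5%, against 20.6%. After TMM scaling the median SDs were 0.22 and 0.26. The sets were not matched for level, with median levels of 59.4 and 20.9 CPM. The exact 95% intervals of the highest and lowest library did not overlap for 36 of 47 genes, and for 81.5% of all genes tested. Without replicate 1, the library with the fewest reads, the median SD was 0.12 over the 47 genes, against 0.19 over all genes tested.

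Which library was highest or lowest differed between the classes. Of the 14 core genes, 12 were highest in replicate 1 and 11 were lowest in replicate 3, while 32.1% and 25.9% of all genes tested were. All 7 beta genes and all 3 immunoproteasome genes were lowest in replicate 3. Of the 17 genes of the 19S particle, 7 were highest in replicate 1, 7 were highest in replicate 3 (48.2% of all genes were) and 5 were lowest in replicate 3. The median deviation from a gene's own mean, on the log2 scale, was 0.33, 0.05 and -0.23 in replicates 1, 2 and 3 for immunoproteasome genes, 0.19, -0.01 and -0.18 for core genes, and -0.02, -0.03 and -0.00 for 19S genes. Over all genes tested it was -0.05, -0.02 and 0.09.

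The summed CPM of the 14 core genes was 0.796, 0.773 and 0.657 times that of the 17 genes of the 19S particle, lowest in replicate 3. The summed CPM of the 3 immunoproteasome genes was 0.252, 0.232 and 0.232 times that of the core, a ratio with an SD of 0.0113. The summed CPM of each of the 3 classes was highest in replicate 1, the 19S sum being 1406, 1296 and 1332 CPM. The 19S genes went both ways, with Psmd13 highest in replicate 1 and Psmd1 highest in replicate 3.

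Coding length differed between these classes and moved with the same pattern over the whole table. Among all genes with under 1 kb of coding sequence, 45.1% were highest in replicate 1 and 40.6% lowest in replicate 3, and their median deviation was 0.06, -0.02 and -0.03. Among genes with 2 kb or more it was -0.17, -0.00 and 0.18. The median deviation of the core was thus larger than that of all genes under 1 kb. The part of coding length, depth and the mix of sorted cells in the pattern was not tested. After TMM scaling between libraries the core deviations were 0.24, 0.03 and -0.26, and the 19S deviations 0.03, 0.01 and -0.09.

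**Figure D4:**
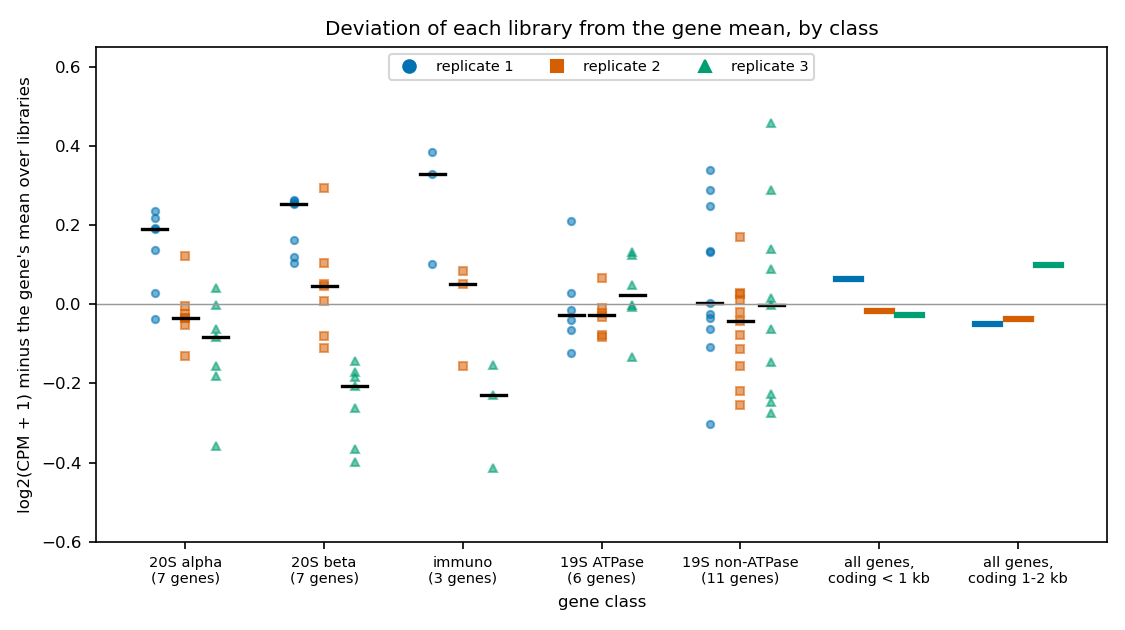
Deviation of each gene from its own mean over the 3 libraries, as log2(CPM + 1), by class. Black bars are class medians, and coloured bars are medians of all genes tested with under 1 kb or 1 to 2 kb of coding sequence. Alpha, beta and immunoproteasome medians lie above 0 in replicate 1 and below 0 in replicate 3, and the 19S medians lie between -0.04 and 0.02.

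Other genes of the pathway were measured beside the members. Of 11 names for further parts and assembly factors, which include older symbols, 9 were listed and all 9 lay above 10 CPM. For this list and those below, the share of all genes tested above that level was 58.8%. Sem1, a small 19S subunit, averaged 342 ± 49.9 CPM, Adrm1, a ubiquitin receptor of the cap, 49.7 ± 4.36 CPM, and Ecpas, which tethers the cap to the core, 75.8 ± 18.8 CPM (SD, n = 3). Pomp, the maturation factor of the 20S core, had 54.0, 42.8 and 40.6 CPM. It was highest in replicate 1, as were 12 of the 14 core genes and 32.1% of all genes tested.

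All 4 genes of the control of proteasome transcription lay above the level. Nfe2l1, the factor that raises proteasome genes when degradation fails, had 54.8, 81.9 and 103.6 CPM. It was lowest in replicate 1 and highest in replicate 3, as were all 4 genes of this list, the reverse of most core genes. Of all 11123 genes tested, 4894 were lowest in replicate 1 and 5363 (48.2%) highest in replicate 3, so each was common by itself. The share of genes with both was not computed. Nfe2l2, the oxidative stress factor, averaged 173 ± 17.4 CPM. Ddi2, the protease that releases Nfe2l1, and Ngly1, which removes its sugars, averaged 34.0 and 26.1 CPM. With 3 libraries no correlation was computed.

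Of 8 shuttle and delivery genes 7 lay above the level and Zfand2a was not called. Vcp, the ATPase that extracts ubiquitin-tagged proteins, averaged 157 ± 17.1 CPM. All 4 ubiquitin genes reported here lay above it, among them Ubb at 463 ± 49.8 CPM and the activating enzyme Uba1 at 424 ± 2.41 CPM. All 7 genes of the class I peptide route lay above it, with B2m, the light chain, at 1161 ± 109 CPM and Erap1, the peptide trimmer of the endoplasmic reticulum, lowest at 33.5 ± 6.55 CPM.

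The 3 interferon regulators of the immunoproteasome genes reported here did not stand on 1 side. Irf1, which acts in the interferon-gamma response, lay above the level at 93.3 ± 7.16 CPM (SD, n = 3). Nlrc5, the transactivator of MHC class I genes, lay below it at 1.36, 3.74 and 3.67 CPM. Irf8, a myeloid factor, had 24.9, 10.01 and 7.39 CPM and was not called, with replicate 1 apart from the other 2 libraries. The labels gave no interferon treatment.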

How the data were processed

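RNA was sequenced from 3 libraries of 1 sorted marrow population. Replicate numbers are those of the labels, which do not state whether separate mice were used. The p-values thus reflect only how these 3 libraries vary, and that variation may be technical. Limma also draws each gene's variance toward the trend over all genes, so its SEs are not those of the gene alone. For Psmd14 the SD of log2(CPM + 1) was 0.018 and the SE of the fit 0.13. Per the labels' protocols, cells were sorted into Trizol and libraries made with an mRNA kit.

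The authors deposited CPM, counts per 1000000 reads assigned to listed genes. Per the submitters' processing notes, FastQC, STAR, featureCounts and edgeR were used with the builds mm10 and GRCh38. The annotation, tool versions, what each build served for, and the strand and multi-mapping settings are not given in the sources used here. Each gene was kept once (44 entries were repeats). Every CPM value was a whole number of reads within 0.01 reads (100%), so read totals were recovered. The floor for a gene with no read was set at 3 reads (0.583 CPM for replicate 1, and 0.0747 and 0.0798 CPM for the deeper libraries). Floors and intervals (exact Clopper-Pearson, 95%) cover counting error only.

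Genes with at least 10 reads in all were fitted with limma 3.58.1 (R 4.3.3, trend) as log2(CPM + 1) against log2 of 10 CPM plus the pseudocount of 1. Fold changes on that scale understate those of low genes. The ratios to Psmb5, Psmb6 and Psmb7 were fitted the same way over all genes. Alternatives were edgeR 4.0.16 and DESeq2 1.42.0 on the recovered reads, TMM scaling, a pseudocount of 0.1, no filter, levels of 5 and 20 CPM, other lengths and leaving out each library. Lengths came from GENCODE M21 (GRCm38) and existed for 99.9% of genes. The scripts were tested on simulated data. All members and the genes of the pathway lists could be named, except 2 list genes that are not reported here. Members and lists were chosen with earlier results of these data known.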

Additional observations from a re-analysis of the deposited data

How the results depend on the processing

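No paired analysis was possible because the labels give 1 group. At a level of 20 CPM, 5 proteasome genes lay below it, and at 5 CPM 1 did (3 at 10 CPM), and 1870 of all genes lay below 5 CPM, against 3153 below 10 CPM. Numbers of all genes above and below 10 CPM were 6539 and 3153 with limma, 6658 and 2838 with edgeR and 6558 and 2939 with DESeq2. Signs turned at 20 CPM for Psma5 (-0.16), Psmd10 (-0.095), Psmd9 (-0.13), Psmg1 (-0.83), Zfand2a (-0.67) and Irf8 (-0.65), at 5 CPM for Psmc3ip (0.33), and per kb against the median gene for Psmd9 (-0.61), Psmf1 (-0.34), Psmg4 (0.89), Usp14 (-0.42), Ipo9 (-0.030), Ddi2 (-0.25), Ngly1 (-0.28) and Irf8 (-0.93), as the other level or scale sets the sign. Of the 48 members, 37 stayed on the same side with every alternative run, as did 26 of 35 pathway genes.

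The pairs turned with length, by construction. With coding length, principal transcript and no length, Psmb8 over Psmb5 was 1.38, 0.58 and 1.44, and Psmb10 over Psmb7 -0.79, -0.98 and -0.81, while Psmb9 over Psmb6 was 0.21 with coding length and 0.087 with no length. Leaving out 1 library gave -0.54 to -0.39, 0.10 to 0.33 and -0.95 to -0.75 for these pairs with the exon union. The immunoproteasome minus core difference of medians was 0.18 with coding length, 0.27 with no length and 0.081 with the principal transcript, and that of the 19S particle -1.04 with coding length and -0.043 with no length. The median SD of the members was 0.12 to 0.23 with 1 library left out. The principal transcript length was chosen after seeing the data. Replicate 1 holds 51.5 reads at 10 CPM, which limits the low chaperone genes.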
